A study of Mus musculus with 6 samples.

Results

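Counts of 7 miRNAs in mouse serum were compared between small RNA libraries made with 3 commercial kits. These were the 5p miRNAs of 3 related families, miR-10, miR-99/100 and miR-125. By their miRBase identifiers, MIMAT0000648 (miR-10a-5p) and MIMAT0000208 (miR-10b-5p) formed the first family, MIMAT0000131 (miR-99a-5p), MIMAT0000132 (miR-99b-5p) and MIMAT0000655 (miR-100-5p) the next, and MIMAT0000135 (miR-125a-5p) and MIMAT0000136 (miR-125b-5p) the last. They were taken from the 788 miRNAs listed in at least 1 library, and all 7 had reads in all 6 libraries. The kits were NEBNext (Multiplex Small RNA), TruSeq (small RNA, version v2) and TailorMix (miRNA, version v2), with 2 libraries for each. Every library was made from serum of healthy 129/SVj mice, a laboratory strain, both males and females being used, aged 2 to 9 months. The mice were sedated with injected tribromoethanol before blood was taken by cardiac puncture. No allele or other treatment is stated that differed between the groups. The sera came from individual mice and are numbered 1 and 2 within each kit, but the labels do not say which animal gave which library, nor that a number stands for the same serum in different kits. The families were picked with their levels in these 6 libraries known. Their shares, ratios and fold changes are therefore given as a description, and no test is claimed for them.

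A miRNA is a short RNA, cut from a hairpin, that guides a silencing complex to messenger RNAs, mainly through its seed, the bases 2 to 8 from its 5′ end. The miR-10 genes lie in the Hox clusters, whose genes pattern the body axis, and miR-10 is prominent in tissues of the trunk. The genes of miR-99/100 and miR-125 sit together in clusters that also hold a let-7 gene. The miR-99/100 family is known to target the growth kinase mTOR, and miR-125 is the vertebrate relative of lin-4, the founding miRNA of the worm. In serum these RNAs circulate in vesicles or bound to protein after release from cells, and serum counts cannot tell apart fewer releasing cells from less RNA per cell.

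The mature sequences show what the 7 share and how little some of them differ. They are given 5′ to 3′ from RefSeq (mouse build GRCm38.p6), with the seed in capitals, and all 7 names were found in that table.
miR-10a-5p: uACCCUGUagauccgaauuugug
miR-10b-5p: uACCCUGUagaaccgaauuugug
miR-99a-5p: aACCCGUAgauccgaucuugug
miR-99b-5p: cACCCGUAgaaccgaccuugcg
miR-100-5p: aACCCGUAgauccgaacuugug
miR-125a-5p: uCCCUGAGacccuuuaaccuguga
miR-125b-5p: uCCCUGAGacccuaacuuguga

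Each family had a seed of its own. In the reference table the miR-10 seed ACCCUGU belonged to 2 mature miRNAs and the miR-99/100 seed ACCCGUA to 3, which are the members listed here. The miR-125 seed CCCUGAG belonged to 5, the others being miR-351-5p, miR-6367 and miR-6394. Within families the differences were few. Counting positions from 1 at the 5′ end, miR-10a-5p and miR-10b-5p differ only by U12A, so that 22 of 23 bases are identical. miR-99a-5p and miR-100-5p differ only by U16A, with 21 of 22 bases identical. miR-99b-5p differs from miR-99a-5p at 4 positions, A1C, U11A, U16C and U21C, marked in capitals here.
miR-99a-5p: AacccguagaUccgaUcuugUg
miR-99b-5p: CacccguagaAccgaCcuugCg
miR-100-5p: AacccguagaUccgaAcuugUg

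The miR-10 pair also resembles miR-99a-5p and miR-100-5p. Over the whole sequence, seed included, miR-10a-5p is 3 single-base edits away from miR-100-5p and 4 from miR-99a-5p. Both miR-10, miR-99a-5p and miR-100-5p end in the same 5 bases, UUGUG, an ending found in 0.357% of the 1679 mature miRNAs of the table. Both miR-125 are 6 to 12 edits away from the members of the other families. miR-125a-5p and miR-125b-5p begin with the same 13 bases and are 3 edits apart. The first base is U in miR-10 and miR-125, A in miR-99a-5p and miR-100-5p, and C in miR-99b-5p. Reads were mapped without mismatches, so a full-length read fits only 1 member. How a shorter read that leaves out the differing base was assigned is not given in the sources used here.

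On GRCm38, Mir10a lies on chromosome 11 from 96317165 to 96317274, 993 bases from Hoxb4 and in no annotated host gene, and Mir10b on chromosome 2 from 74726070 to 74726137, in introns of the Hoxd3 and Hoxd4 transcripts. Mir99b and Mir125a lie on chromosome 17, from 17830188 to 17830257 and from 17830812 to 17830879, both within Spaca6. Only 554 bases separate these hairpins, and that of Mir125a overlaps an annotated Spaca6 exon. Mir99a and Mir125b-2 lie on chromosome 16, from 77598936 to 77599000 and from 77646273 to 77646343, both within the host transcript Mir99ahg. Mir100 and Mir125b-1 lie on chromosome 9, from 41531425 to 41531504 and from 41581926 to 41582002, within a non-coding transcript. All 8 hairpins are on the plus strand. miR-125b-5p is made from 2 genes, and its reads cannot be assigned to either of them.

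Libraries held 165139 to 351758 reads on miRNAs, out of 5144833 to 26256012 reads annotated as any small RNA. Levels are given as a share of a library's miRNA reads. On this scale 3 counts, the limit below which a level was taken as not reliable, correspond to 0.000853% to 0.00182%. Of the members, 5 had at least 4 counts in all 6 libraries, miR-99a-5p had them in 4 and miR-100-5p in 3. Intervals of single libraries are 95% Wilson intervals. They cover counting error only, since copies of a molecule made by PCR are counted as separate reads. The labels do not say that the 2 libraries of a kit came from different mice, so their spread may be technical. The identifiers other than those of the members were not paired with names in the tables used here, so markers of blood cells or tissues were not analysed here.

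Together the 7 miRNAs made up a large part of the miRNA reads with 2 of the kits and almost none with TailorMix. Their summed share was 28.8% and 32.8% with TruSeq and 14.0% and 14.7% with NEBNext, against 0.644% and 0.653% with TailorMix. The libraries of the 3 kits did not overlap, and the TruSeq mean of 30.8% ± 2.78 (SD, n = 2) was 47.5-fold above the TailorMix mean of 0.648% ± 0.00645 (SD, n = 2), with NEBNext between them at 14.4% ± 0.497 (SD, n = 2). As a share of all annotated small RNA reads the order was the same, with 0.132% for NEBNext, 0.927% for TruSeq and 0.0242% for TailorMix. The lead of TruSeq over NEBNext rested on miR-10. Without the most abundant miRNA of each library, which is miR-10b-5p with TruSeq, the share was 15.7% with NEBNext and 14.3% with TruSeq, and with both miR-10 left out, a choice made after the data were seen, it was 6.27% and 0.572%.

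The make-up of this sum also differed between kits. With NEBNext, the miR-10 pair supplied 59.6% and 60.6% of the members' reads. Its part was 98.7% and 98.8% with TruSeq and 83.6% and 85.4% with TailorMix. The miR-99/100 family supplied 35.4% and 35.5% with NEBNext, but 0.188% and 0.190% with TruSeq and 0.856% and 1.04% with TailorMix. The miR-125 pair supplied the remainder, which was largest with TailorMix at 13.7% and 15.3%.

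**Figure D1:**
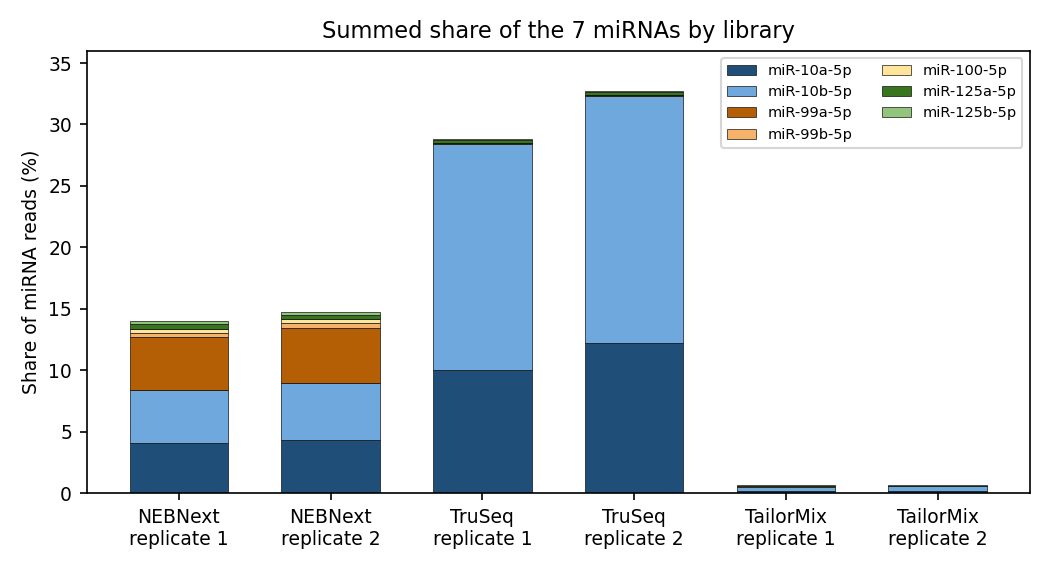
Stacked bars give the share of miRNA reads (%) of each of the 7 miRNAs in each of the 6 libraries, with kit and replicate on the horizontal axis. The TruSeq bars reach 28.8% and 32.8% and are nearly all miR-10, the NEBNext bars reach 14.0% and 14.7% with a large miR-99a-5p segment, and the TailorMix bars stay under 1%.

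miR-10b-5p was the most abundant miRNA of both TruSeq libraries. It took 18.4% and 20.1% of miRNA reads there, with 64882 and 56677 counts, against 4.32% and 4.61% with NEBNext (9703 and 7609 counts) and 0.352% and 0.371% with TailorMix (681 and 731 counts). Its rank among all miRNAs was 1 in both TruSeq libraries, 3 and 2 with NEBNext, and 40 and 39 with TailorMix. The mean share was 4.32-fold higher with TruSeq than with NEBNext, and 12.3-fold lower with TailorMix than with NEBNext. The libraries of the 3 kits did not overlap.

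Such separation was common among the 360 miRNAs with at least 4 counts in 2 or more of the 6 libraries. Between TruSeq and NEBNext the shares of 83.6% of them did not overlap, 21.9% being higher and 61.7% lower with TruSeq, and all 7 members were among them, both miR-10 higher and the other 5 lower. Between TailorMix and NEBNext this held for 88.9%, 36.1% higher and 52.8% lower with TailorMix, and for all 7 members, which were lower. Between TailorMix and TruSeq it held for 83.9%, 53.3% higher and 30.6% lower with TailorMix, and for all 7 members, of which 6 were lower and miR-100-5p higher. Since the members were chosen on these libraries, nothing is read from their counts.

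miR-10a-5p followed the same order of kits. Its share was 9.99% and 12.3% with TruSeq (35148 and 34567 counts), 4.05% and 4.32% with NEBNext (9098 and 7133 counts), and 0.186% in both TailorMix libraries (360 and 367 counts). The mean share was 2.66-fold higher with TruSeq than with NEBNext and 22.5-fold lower with TailorMix than with NEBNext. The 2 TruSeq libraries differed by more than their intervals, which were 9.89% to 10.1% and 12.1% to 12.4%, so counting error is not the main error of this value.

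miR-99a-5p showed the widest range of the 7. With NEBNext it took 4.35% and 4.55% of miRNA reads, with 9773 and 7513 counts, and ranked 2 and 3. With TruSeq it had 8 and 4 counts (0.00227% and 0.00142%) and with TailorMix 1 and 2 counts. NEBNext thus lay far above both other kits, in which miR-99a-5p was close to or under the 3-count limit. The ratio of the pooled shares was 2341 between NEBNext and TruSeq (95% exact counting interval 1340 to 4532) and 5767 between NEBNext and TailorMix (1973 to 27969). Between TruSeq and TailorMix the ratio was 2.46, with an interval of 0.665 to 13.6 that includes equal shares. Between these kits edgeR with TMM did not call miR-99a-5p, but it was called lower with TailorMix under 3 other scalings and without TruSeq replicate 2.

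miR-100-5p, which differs from miR-99a-5p by a single base, also had nearly all of its reads in the NEBNext libraries. It had 659 and 535 counts there (0.293% and 0.324%), against 3 and 2 with TruSeq and 7 and 3 with TailorMix. The ratio of the pooled shares of NEBNext to TruSeq was 388 (166 to 1197) and to TailorMix 120 (64.8 to 250). The TailorMix libraries lay above the TruSeq libraries, with 10 against 5 counts in all. The pooled share of TruSeq was 0.308 times that of TailorMix (95% exact counting interval 0.0826 to 0.989). That interval covers counting error only, and no difference is read from it. Both TruSeq libraries and TailorMix replicate 2 were at or under the 3-count limit. The Wilson intervals of the single libraries overlapped, and edgeR with TMM did not call miR-100-5p between these kits.

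miR-99b-5p, which has C as its first base and differs from both relatives at 4 positions, differed less between NEBNext and TruSeq. Its share was 0.336% in both NEBNext libraries (756 and 555 counts), 0.0512% and 0.0603% with TruSeq (180 and 170 counts), and 0.00258% and 0.00305% with TailorMix (5 and 6 counts). The kits did not overlap. The mean was 6.03-fold lower with TruSeq than with NEBNext, and for TailorMix the pooled shares gave a NEBNext to TailorMix ratio of 119 (95% exact counting interval 66.5 to 240). With TruSeq, miR-99b-5p was therefore the leading member of its family, whereas with NEBNext miR-99a-5p was.

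By share of miRNA reads, the miR-125 sum differed least between kits of the 3 family sums. It was 1.87-fold lower with TruSeq and 6.74-fold lower with TailorMix than with NEBNext. miR-125a-5p took 0.420% and 0.359% with NEBNext (944 and 593 counts), 0.252% and 0.267% with TruSeq (887 and 753 counts), and 0.0677% and 0.0604% with TailorMix (131 and 119 counts). By share of miRNA reads NEBNext lay above TruSeq by 1.50-fold and above TailorMix by 6.08-fold. The first of these differences depended on the denominator. Taken as a share of all annotated small RNA reads, miR-125a-5p was higher with TruSeq than with NEBNext, without overlap. The values were 0.00763% and 0.00800% with TruSeq and 0.00360% and 0.00349% with NEBNext. On that scale the miR-125 sum also had a higher mean with TruSeq, at 0.0102% against 0.00577% with NEBNext. When reads of miR-10 were left out of the miRNA total, an alternative chosen after the data were seen, these kits overlapped. The shares of miR-125a-5p were then 0.458% and 0.394% with NEBNext and 0.352% and 0.395% with TruSeq.

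miR-125b-5p took 0.263% and 0.226% with NEBNext (591 and 374 counts), 0.0810% and 0.0783% with TruSeq (285 and 221 counts), and 0.0310% and 0.0289% with TailorMix (60 and 57 counts). The 3 kits did not overlap. The mean was 3.07-fold lower with TruSeq and 8.16-fold lower with TailorMix than with NEBNext. Leaving miR-10 out of the total kept the order, with 0.268%, 0.115% and 0.0301% in the mean of NEBNext, TruSeq and TailorMix. As a share of all annotated small RNA reads, however, TruSeq lay slightly above NEBNext. The values were 0.00245% and 0.00235% with TruSeq and 0.00225% and 0.00220% with NEBNext. Between NEBNext and TruSeq the direction did not hold under every scaling, the log2 fold change being -0.55 with TMM and 0.35 with upper quartile normalization, and the edgeR call was lost with no count filter and in the fit of only 4 libraries.

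**Figure D2:**
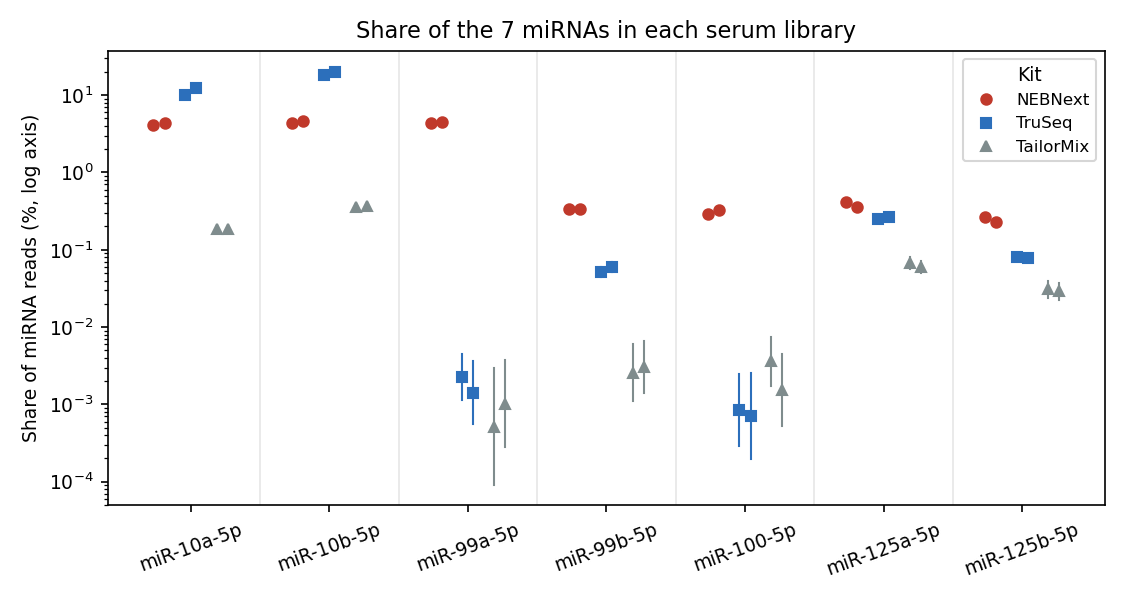
Points give the share of miRNA reads (%, log axis) of each miRNA in each of the 6 libraries, coloured by kit, with 95% Wilson intervals as bars. Both miR-10 are highest with TruSeq, at 9.99% to 20.1%, while the other 5 miRNAs are highest with NEBNext, and miR-99a-5p and miR-100-5p drop from above 0.29% to under 0.004% with the other 2 kits.

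Ranked by mean share, TruSeq came before NEBNext and TailorMix for both miR-10. For miR-99a-5p, miR-99b-5p and both miR-125 the order was NEBNext, TruSeq, TailorMix, and for miR-100-5p it was NEBNext, TailorMix, TruSeq. By the pooled counts, the neighbours whose ratio had a counting interval that included 1 were TruSeq and TailorMix for miR-99a-5p, and for miR-100-5p the interval of the same kits ended at 0.989. Both intervals cover counting error only and rest on few counts. Within a kit the order of the members changed too. With NEBNext, miR-10b-5p, miR-99a-5p and miR-10a-5p ranked 2, 3 and 4 among all miRNAs by mean share, and the other 4 members ranked 48 to 63. With TruSeq, both miR-10 ranked 1 and 2, while miR-99a-5p ranked 198 and miR-100-5p 264. With TailorMix, no member ranked above 39.

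A ratio of 2 miRNAs in the same library does not depend on how libraries are scaled to each other. The ratio of miR-10a-5p to miR-10b-5p was 0.938 and 0.937 with NEBNext. It was 0.542 and 0.610 with TruSeq and 0.529 and 0.502 with TailorMix. NEBNext thus recorded nearly equal counts of these near-identical sequences, and the other kits recorded less of miR-10a-5p relative to miR-10b-5p. The 95% exact counting intervals of both NEBNext libraries (0.911 to 0.965 and 0.908 to 0.968) lay above those of the other 4 libraries, the highest of which ended at 0.618. Those of the TruSeq libraries (0.535 to 0.549 and 0.602 to 0.618) did not overlap each other, so libraries of a kit can differ by more than counting error.

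The ratio of miR-125a-5p to miR-125b-5p was 1.60 and 1.59 with NEBNext. It was higher at 3.11 and 3.41 with TruSeq and at 2.18 and 2.09 with TailorMix. The values of the kits did not overlap. The intervals of both NEBNext libraries (1.44 to 1.77 and 1.39 to 1.81) lay below those of both TruSeq libraries (2.72 to 3.57 and 2.93 to 3.98). Those of the TailorMix libraries (1.60 to 3.02 and 1.51 to 2.92) overlapped with NEBNext and, except for TailorMix replicate 2 and TruSeq replicate 2, also with TruSeq. In every library miR-125a-5p exceeded miR-125b-5p.

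In the miR-99/100 family the ratios changed by more. miR-99a-5p exceeded miR-100-5p by 14.8-fold and 14.0-fold with NEBNext. With TruSeq the counts were 8 to 3 and 4 to 2, and with TailorMix 1 to 7 and 2 to 3, and all 4 of these intervals included 1. The ratio of miR-99b-5p to miR-100-5p was 1.15 and 1.04 with NEBNext, but 60.0 (20.2 to 294) and 85.0 (23.2 to 708) with TruSeq. With TailorMix it was 0.714 (0.179 to 2.61) and 2.00 (0.427 to 12.4), whose intervals included the NEBNext values.

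miRNAs of the same genomic cluster differed as well. These pairs were chosen after the data were seen. The ratio of miR-99b-5p to miR-125a-5p, whose hairpins lie 554 bases apart, was 0.801 and 0.936 with NEBNext. It was lower at 0.203 and 0.226 with TruSeq and at 0.0382 and 0.0504 with TailorMix. The ratio of miR-99a-5p to miR-125b-5p was 16.5 and 20.1 with NEBNext but 0.0281 and 0.0181 with TruSeq and 0.0167 and 0.0351 with TailorMix. miR-99a-5p thus exceeded miR-125b-5p with NEBNext and was below it with both other kits. The ratio of miR-100-5p to miR-125b-5p was 1.12 and 1.43 with NEBNext. It was 0.0105 and 0.00905 with TruSeq and 0.117 and 0.0526 with TailorMix, where no library exceeded 7 miR-100-5p counts. As miR-125b-5p is made from 2 genes in separate clusters, its counts in these ratios mix both. Between families, the summed miR-10 counts were 1.68 and 1.71 times the summed miR-99/100 counts with NEBNext, as against 524 and 518 times with TruSeq and 80.1 and 99.8 times with TailorMix.

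**Figure D3:**
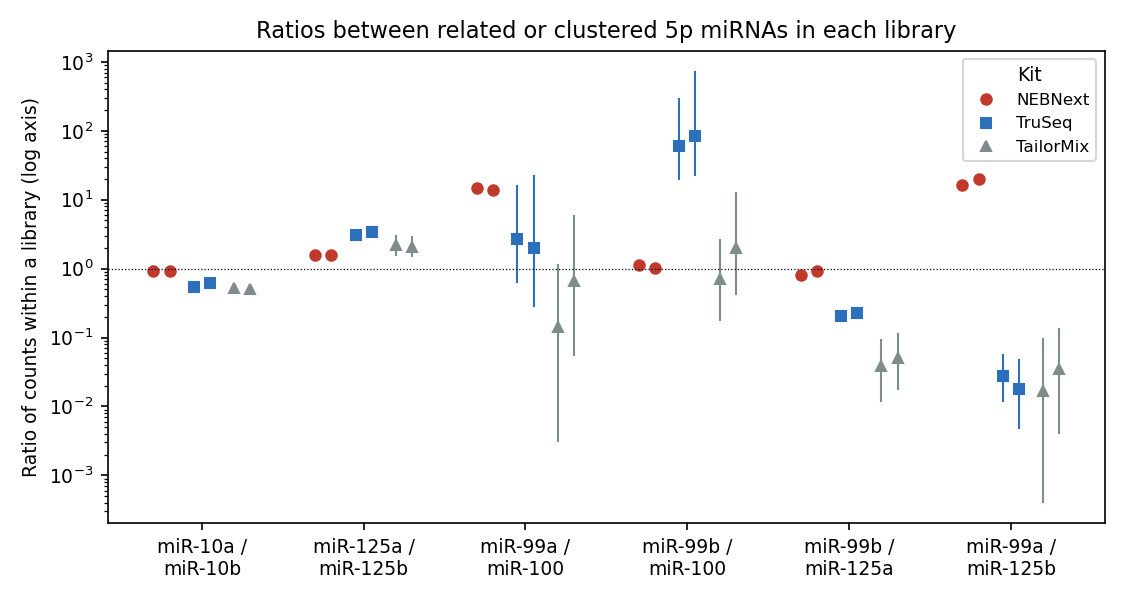
Points give the ratio of the counts of 2 miRNAs within each library (log axis), coloured by kit, with 95% exact counting intervals as bars and a dotted line at equal counts. The ratio of miR-10a-5p to miR-10b-5p stays between 0.502 and 0.938 in all libraries, whereas that of miR-99a-5p to miR-125b-5p is 16.5 and 20.1 with NEBNext and under 0.04 in the other 4 libraries.

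To set the members beside all other miRNAs, these 360 miRNAs were fitted with edgeR's quasi-likelihood test, using TMM normalization, which assumes that most miRNAs keep their level. All 7 members passed this filter, miR-100-5p with at least 4 counts in both NEBNext libraries and a single other one. Between TruSeq and NEBNext, 68.6% of all miRNAs had an adjusted p under 0.05 (Benjamini-Hochberg), 26.1% higher and 42.5% lower in TruSeq. Of the members, 7 of 7 were called, 3 higher and 4 lower. Between TailorMix and NEBNext, 77.5% of all miRNAs were called, 39.2% higher and 38.3% lower in TailorMix, and all 7 members were called lower. Between TailorMix and TruSeq, 70.6% were called, 41.7% higher and 28.9% lower in TailorMix, among them 5 members, while miR-99a-5p and miR-100-5p were not called. Nothing is read from these counts either. With 68.6% to 77.5% of miRNAs called, the assumption of TMM is in doubt, and the calls and log2 fold changes depend on the scaling. Scaled by total miRNA reads, the calls between TruSeq and NEBNext were 61 higher and 191 lower in place of 94 and 153, and with upper quartile normalization they were 140 and 122. Between TailorMix and NEBNext they were 108 and 172 by total miRNA reads in place of 141 and 138, and between TailorMix and TruSeq 117 and 136 with upper quartile normalization in place of 150 and 104.

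As TMM log2 fold changes, miR-10b-5p was 3.18 (standard error 0.080) and miR-10a-5p 2.48 (0.086) higher in TruSeq than in NEBNext, where the median of all 360 miRNAs was -0.52. On the same scale and in the same comparison, miR-99a-5p was at -10.10 (0.35), miR-100-5p at -7.47 (0.64), miR-99b-5p at -1.53 (0.15), miR-125b-5p at -0.55 (0.15) and miR-125a-5p at 0.48 (0.13). The direction of miR-125a-5p also depended on the scaling, being -0.59 by total miRNA reads. The call of miR-125a-5p was also lost without NEBNext replicate 1 and without NEBNext replicate 2.

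From NEBNext to TailorMix, miR-99a-5p was at -11.75 on the log2 scale (standard error 0.69), with miR-100-5p at -6.23 (0.46) and miR-99b-5p at -6.22 (0.43). The value of miR-99a-5p rests on 1 and 2 TailorMix counts. miRNAs with no TailorMix counts have a fold change limited by their NEBNext level, so no rank among miRNAs is given. The miR-10 pair was at -3.84 (0.094) for miR-10a-5p and -2.97 (0.084) for miR-10b-5p. The miR-125 pair was nearest to the median of -0.24, with -1.95 (0.15) for miR-125a-5p and -2.38 (0.18) for miR-125b-5p.

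From TruSeq to TailorMix, the miR-10 pair was lowest among the members, with log2 fold changes of -6.31 (standard error 0.094) for miR-10a-5p and -6.15 (0.083) for miR-10b-5p. miR-99b-5p followed at -4.69 (0.43), miR-125a-5p at -2.43 (0.15) and miR-125b-5p at -1.83 (0.19), while the median of all miRNAs was 0.50. miR-99a-5p, at -1.66 (0.77), and miR-100-5p, the only member with a positive value at 1.24 (0.78), were not called and rest on few counts. These comparisons share libraries and are not independent of each other.

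**Figure D4:**
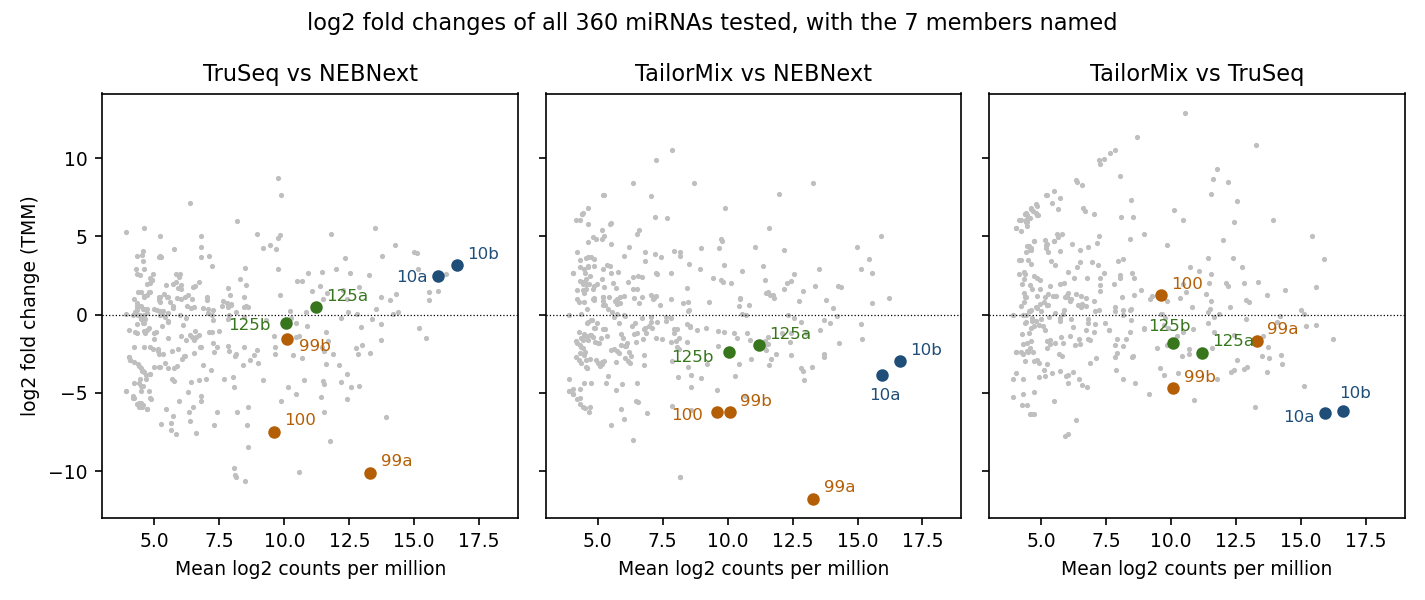
Each grey point is 1 of the 360 miRNAs tested, with its mean log2 CPM (counts scaled to a common library size) on the horizontal axis and its TMM log2 fold change between 2 kits on the vertical axis, and the 7 members are named and coloured by family. The miR-10 pair moves from 2.48 and 3.18 in the first panel to -6.31 and -6.15 in the last, and miR-99a-5p lies at -10.10 and -11.75 in the first and second.

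Other miRNAs were compared with the family sums by the root mean square distance between log2 shares over the 6 libraries, each centred on its own mean, among 141 miRNAs with at least 4 counts in all of them. The nearest to the miR-10 sum was MIMAT0000739, at a distance of 0.178, with 6197 and 4886 counts with TruSeq, 1426 and 1029 with NEBNext and 68 and 84 with TailorMix. Nearest to the miR-125 sum was MIMAT0000247 at 0.359, with mean shares of 3.34%, 1.03% and 0.324% in NEBNext, TruSeq and TailorMix. For the miR-99/100 sum, MIMAT0000161 was nearest, but at a distance of 1.61, with mean shares of 0.591%, 0.0421% and 0.00996%. The minimum of 4 counts in all libraries leaves out miRNAs that nearly vanish with TruSeq or TailorMix, as miR-99a-5p and miR-100-5p do, so miRNAs closer to this family may not have been among the candidates. The 2 libraries of a kit vary little beside the kits, so these distances mostly compare 3 kit levels.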

How the data were processed

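Small RNA was sequenced from serum of healthy 129/SVj mice in 6 libraries, 2 for each of 3 kits. The deposited values are raw read counts, 1 list of miRNAs and 1 list of other small RNA sequences per library. To make them, the authors trimmed adaptors (Cutadapt 1.8.1), discarded short or low-quality reads, mapped without mismatches (Bowtie 1.1.2, GRCm38) and annotated reads by position with miRBase, UCSC and Ensembl tracks. The counts are not normalized, and an unlisted miRNA was taken as 0.

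Groups and replicate numbers came from the sample titles. Shares, Wilson intervals, exact binomial intervals of count ratios and SDs were computed in Python 3.11.15 (scipy 1.17.1, numpy 2.4.6, pandas 2.3.3). A member is named through its miRBase identifier, and no table that pairs the other identifiers with names was used here. Lists of 3p arms, of let-7 and miR-196 neighbours, of miRNAs with shared seeds or ends and of tissue markers had been planned and were therefore not analysed here. All miRNAs were fitted with edgeR 4.0.16 (R 4.3.3) over all 6 libraries, with glmQLFit, glmQLFTest, TMM and no block, and standard errors were taken from the fitted weights. The fit was tested on simulated counts in which most miRNAs were unchanged. That does not show how it behaves where most miRNAs are called, as here. The 7 members and the lists were chosen with earlier results of these data known. Named are the 7 members and the miRNA nearest to each family sum, of 3 per family planned.

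The 2 libraries of a kit differed by more than counting noise, with a chi-square per degree of freedom over miRNAs of 15.0 for TruSeq, 2.16 for NEBNext and 1.59 for TailorMix. Over the members alone it was 32.4 for TruSeq, 4.71 for NEBNext and 0.716 for TailorMix. For the members, the TailorMix libraries thus did not differ beyond counting noise. The alternatives were other normalizations, DESeq2 1.42.0, other filters, fits of 4 libraries, the replicate number as a block, and leaving out single libraries. Kit and all later handling of a library cannot be told apart.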

Additional observations from a re-analysis of the deposited data

How the results depend on the processing

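Of 305 log2 fold changes of the 7 members recomputed under the alternatives, 303 kept their direction. The exceptions were both from NEBNext to TruSeq. miR-125a-5p was at -0.59 with total miRNA reads as library size, against 0.48 with TMM. miR-125b-5p was at 0.35 with upper quartile normalization, against -0.55 with TMM. These scalings also moved the median of all miRNAs, total reads by -0.95 and upper quartile normalization by 0.59. The counts of miRNAs called were 247 (TruSeq and NEBNext), 279 (TailorMix and NEBNext) and 254 (TailorMix and TruSeq). Requiring at least 10 counts in all 6 libraries leaves fewer miRNAs to test and gave 91, 101 and 98, without miR-99a-5p, miR-99b-5p and miR-100-5p. Leaving out single libraries gave 200 to 262, 207 to 284 and 206 to 252, and DESeq2 gave 175, 200 and 204. With the replicate block the counts were 232, 250 and 235, and the members called were the same 7, 7 and 5. The numbers are not known to pair the sera. Between kits, the difference of replicates 1 and 2 over 90 miRNAs correlated at 0.138, 0.180 and 0.0370.

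The summed share of the members in NEBNext, TruSeq and TailorMix was 0.132%, 0.927% and 0.0242% of annotated reads, and 15.7%, 14.3% and 0.769% without each library's most abundant miRNA, which is miR-10b-5p itself with TruSeq, so that TruSeq then fell below NEBNext. As alternatives chosen after seeing the data, it was 6.27%, 0.572% and 0.101% with both miR-10 left out, and 16.8% and 44.6% of all other miRNA reads in NEBNext and TruSeq. Single libraries gave 14.0% to 14.7%, 28.8% to 32.8% and 0.644% to 0.653%. The call of miR-125a-5p from NEBNext to TruSeq was also lost with no count filter and with at least 10 counts, and that of miR-125b-5p with no count filter and in the fit of 4 libraries. From TruSeq to TailorMix, miR-99a-5p was called lower with DESeq2 size factors, upper quartile normalization, TMM factors computed without the members and without TruSeq replicate 2, and miR-100-5p was called higher by total miRNA reads. The values of miR-99a-5p and miR-100-5p with TruSeq and TailorMix rest on few counts, no library exceeding 8. The TruSeq libraries held 351758 and 282076 miRNA reads and the TailorMix libraries 193468 and 196895, against 224864 and 165139 with NEBNext.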
